A study of Homo sapiens with 6 samples.

Results

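UCHL1 ChIP-seq peaks were examined at 6 duplicated genes of the subtelomeric kind, namely DDX11L1, DDX11L2, DDX11L5, FAM157A, LINC00266-3 and TUBBP5. The study's site table places 9 sites at these genes, on 5 chromosomes: 3 at DDX11L5, 2 at FAM157A and 1 at each of the others. Every deposited peak that shared a base with a site or lay within 5 kb of one was taken, which gave 37 of 6813 peaks. Of these, 11 were among the 3086 peaks of DU 145 cells with formaldehyde cross-linking, 16 among the 1531 of DU 145 cells with dual cross-linking, and 10 among the 2196 of HEK293T cells with dual cross-linking. DU 145 is a prostate cancer line from a brain metastasis, and HEK293T is an embryonic kidney line that carries the SV40 T antigen. Neither line was treated or altered further per the labels. The formaldehyde cells were fixed with 1% formaldehyde and their DNA was sonicated. The dual cells were fixed with 1 mM DSP, a protein-to-protein cross-linker, and formaldehyde, and their DNA was digested with micrococcal nuclease, so cross-linking and fragmentation changed together. The labels give 1% formaldehyde there too, while the study's methods give a lower concentration. UCHL1, a deubiquitinating enzyme abundant in neurons, was precipitated with 1 monoclonal antibody. Each condition had 1 ChIP library and 1 input library, so no difference below has a replicate check and none was tested. The files give no read totals and the study's totals are not per library, so the depth of each library is unknown. The sites were chosen by the study as present in both DU 145 lists, so their presence there is not a result.

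Human telomeres are long arrays of the hexamer TTAGGG, which the shelterin proteins TRF1 and TRF2 bind as double-stranded DNA. The G-rich strand runs towards the chromosome end, so the forward strand of the reference reads CCCTAA at the start of a chromosome and TTAGGG at its end. Just inside the telomeres lie subtelomeres, blocks of sequence copied between chromosome ends that hold pseudogenes and degenerate telomeric hexamers. The DDX11L genes are such copies, pseudogenes related to the helicase gene DDX11. DDX11L2 lies inside chromosome 2, where the ends of a pair of ancestral chromosomes fused head to head and left opposed telomeric arrays. FAM157A is a subtelomeric pseudogene, LINC00266-3 a long non-coding RNA and TUBBP5 a pseudogene of beta-tubulin.

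The hg19 sequences of 2 dual DU 145 peaks are shown here, forward strand, 5′ to 3′, with every exact CCCTAA or TTAGGG in capitals. The DDX11L2 peak is the one with the highest fold enrichment at that gene and shows an interrupted array. Peak 3 of DDX11L5 is shown because its hexamers turn into the variant CCCGAA.
DDX11L2, chr2:114360585-114360748: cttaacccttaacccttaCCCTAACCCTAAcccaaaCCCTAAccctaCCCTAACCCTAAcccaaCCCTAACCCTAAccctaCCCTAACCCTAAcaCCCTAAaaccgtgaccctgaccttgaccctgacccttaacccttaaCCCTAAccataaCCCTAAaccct
DDX11L5, peak 3, chr9:10296-10394: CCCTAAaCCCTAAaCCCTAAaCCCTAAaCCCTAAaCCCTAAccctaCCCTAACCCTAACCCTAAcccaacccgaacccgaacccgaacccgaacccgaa
The hexamer runs were long at DDX11L1 and short at DDX11L2. The DDX11L2 peak held 12 exact hexamers with at most 2 in succession, and the stronger formaldehyde peak of DDX11L1 held 18 with at most 6 in succession. The dual peak with the highest fold enrichment held 12 hexamers at DDX11L5, 29 at FAM157A, 19 at LINC00266-3 and 9 at TUBBP5. DDX11L1, DDX11L5 and LINC00266-3 lie near the start of their chromosomes and read CCCTAA, while FAM157A and TUBBP5 lie near the end of theirs and read TTAGGG, in each case the orientation of a telomere at that end. The DDX11L1 and DDX11L5 sites began 10.0 to 10.3 kb from the start of chromosomes 1 and 9, and the LINC00266-3 site 148 kb from the start of chromosome 6. The FAM157A and TUBBP5 sites lay 121 to 159 kb from the ends of chromosomes 3 and 9.

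Telomeric repeats were the common feature of the peaks at all 6 genes. At least 2 consecutive hexamers were present in 33 of the 37 peaks. By list, these were 11 of 11 formaldehyde peaks, against 2.58% of all readable peaks of that list, 15 of 16 dual DU 145 peaks, against 10.6%, and 7 of 10 HEK293T peaks, against 2.24%. The study had already listed these sites as holding the repeat before the genes were chosen here, and 27 of the 37 peaks shared a base with a site. The shares therefore describe the choice of sites and are no test of enrichment. The dual peak below the limit lay 46 bases beyond the TUBBP5 site and held 3 separate hexamers. The 3 HEK293T peaks below it held no hexamer and lay away from the sites.

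The arrays under the peaks differed between the copies. An array was taken as hexamers of 1 orientation no more than 200 bases apart, within 5 kb of the sites. DDX11L1 had the densest array, with 67 hexamers over 461 bases, which filled 87.2% of its bases and held a run of 17. Only 8 further hexamers in it were 1 base away from TTAGGG, and 6 of these were TTGGGG. The reference leaves the first 10000 bases of chromosomes 1 and 9 undetermined, and the DDX11L1 and DDX11L5 arrays both began at base 10004. DDX11L5 had 39 hexamers over 409 bases (57.2% of bases, longest run 5), with 23 hexamers 1 base away, of which TGAGGG and TTCGGG made up 7 each. LINC00266-3 had 36 over 343 bases (63.0%, longest run 6). FAM157A had the longest array, 144 hexamers over 1821 bases (47.4%, longest run 10), with 121 hexamers 1 base away, led by TAAGGG (23) and TTAAGG (21). TUBBP5 had the fewest, 19 over 330 bases (34.5%, longest run 5), fewer than its 27 hexamers with 1 base changed. The CCCTAA array of DDX11L2 held 43 hexamers over 539 bases (47.9%), none in a run longer than 2, and 42 with 1 base changed.

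**Figure D1:**
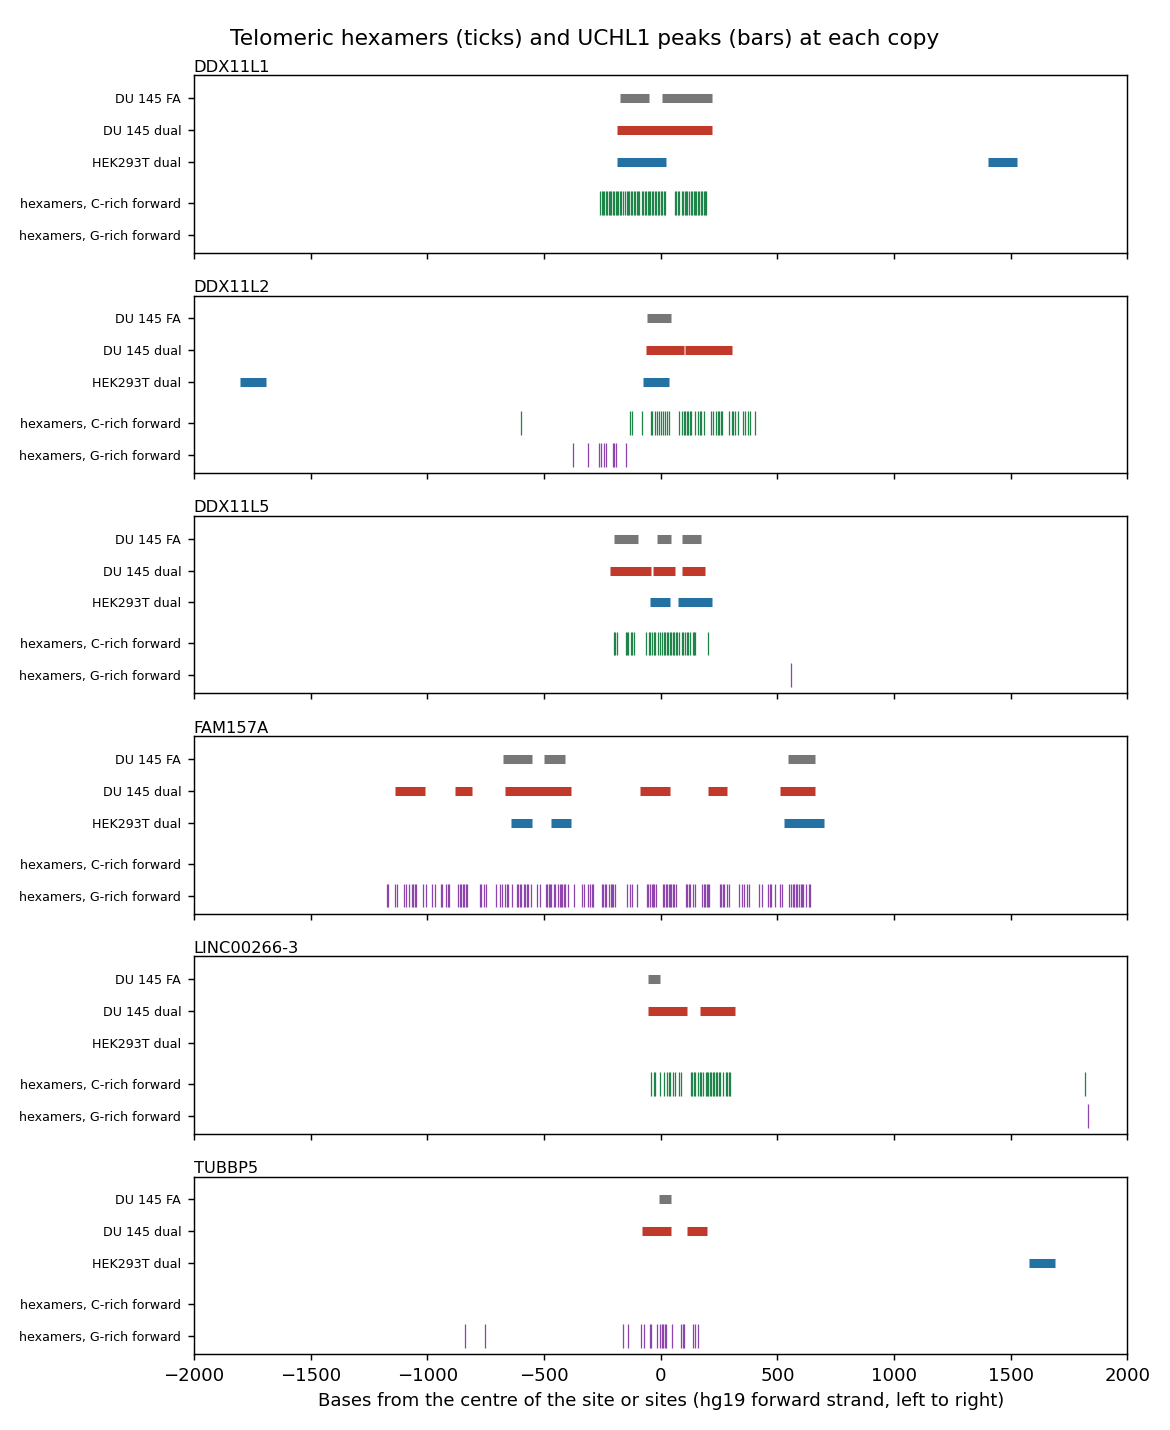
For each gene, ticks mark exact telomeric hexamers by the strand-wise reading of the hg19 forward strand and bars mark UCHL1 peaks by list, against bases from the centre of the gene's site or sites, out to the same distance on either side. All 34 peaks other than 3 HEK293T bars at DDX11L1, DDX11L2 and TUBBP5 sit on a hexamer array, and at DDX11L2 the peaks sit on the C-rich array only.

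DDX11L2, the copy inside chromosome 2, carried 2 opposed arrays, and the peaks lay on 1 of them. The junction is shown because it separates the array with peaks from the array without.
DDX11L2 junction, chr2:114360438-114360577: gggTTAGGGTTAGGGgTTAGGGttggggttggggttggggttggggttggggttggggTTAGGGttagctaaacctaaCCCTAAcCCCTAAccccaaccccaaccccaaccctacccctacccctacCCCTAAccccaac
Reading along the forward strand, 10 TTAGGG hexamers between positions 114360269 and 114360501 were followed, after 14 bases, by the 43 CCCTAA hexamers up to position 114361054. All 4 peaks with hexamers (1 formaldehyde, 2 dual and 1 HEK293T) overlapped the CCCTAA array, and 0 overlapped the TTAGGG array. The nearest peak began 68 bases past the last TTAGGG. The TTAGGG array was the sparser, with 25.8% of its bases in hexamers, and is the one on the side of the DDX11L2 pseudogene. Reads were 50 bases long and mapped with up to 2 mismatches. All 490 stretches of 50 bases in the CCCTAA array and 168 of the 184 (91.3%) in the TTAGGG array occurred once in hg19 by exact match, and 86.9% and 81.5% had 1 place when 2 mismatches were allowed. The part of mapping in the side without peaks was not tested.

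None of the 9 sites lay in an exon of GENCODE 44 mapped to hg19. The DDX11L1, DDX11L2 and DDX11L5 sites were intergenic, upstream of their pseudogenes by 1585, 1739 and 1731 to 2007 bases. A long non-coding RNA (ENSG00000290825) lay nearer to the DDX11L1 site, at 1444 bases. The FAM157A sites lay 6212 and 7252 bases from FAM157A, and the TUBBP5 site 15136 bases from TUBBP5. These sites fell within introns of longer non-coding RNAs that have no gene name (ENSG00000290937 and ENSG00000290588). LINC00266-3 was not found by that symbol, and the nearest annotated gene to its site was SEPTIN14P6, a pseudogene 2518 bases away. The study's own annotation differs in that it puts the sites of DDX11L2, FAM157A, LINC00266-3 and TUBBP5 in introns of these genes.

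The 3 DDX11L copies shared their pseudogene sequence, and the long shared stretches ended before the arrays. Over the window of 5 kb, DDX11L1 aligned to DDX11L2 over 4179 bases at 98.5% identity and to DDX11L5 over 4398 bases at 98.1%, and DDX11L2 aligned to DDX11L5 over 4046 bases at 98.3%. Each of these stretches lay on the gene side of the arrays and did not enter them. LINC00266-3 shared 1928 bases with DDX11L2 at 94.2% and 823 bases with FAM157A at 93.0%, likewise outside the arrays, while its array itself aligned to that of DDX11L1 in stretches of up to 297 bases. TUBBP5 aligned to none of the other windows at 90% identity or more.

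DDX11L1 and FAM157A had the strongest peaks of the 6 genes with dual cross-linking. Fold enrichment, the ratio of ChIP tags to the local background that MACS estimates with the input, is given with the tags of the peak and an exact 95% Poisson interval, which covers counting error only. At DDX11L1 the dual peak covered most of the array (chr1:10074-10481), with a fold enrichment of 129.8 and 132 tags (110 to 157). The same stretch held 2 formaldehyde peaks, with a fold enrichment of 43.0 and 43 tags (31.1 to 57.9) and of 28.4 and 18 tags (10.7 to 28.4). In HEK293T 1 peak (chr1:10075-10284) had a fold enrichment of 21.5 and 26 tags (16.98 to 38.1). The tag intervals of the dual peak and of the others did not overlap, though tags are not scaled for depth.

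FAM157A had 12 peaks along its long array, 3 with formaldehyde, 6 with dual cross-linking and 3 in HEK293T. At its first site the dual peak had a fold enrichment of 125 and 131 tags (110 to 155). The 2 formaldehyde peaks there had fold enrichments of 63.9 and 21.8 with 25 and 24 tags. The 2 HEK293T peaks there had fold enrichments of 19.2 and 44.2 with 22 and 19 tags. At its second site the fold enrichment was 19.1 with formaldehyde (15 tags), 84.8 with dual cross-linking (58 tags) and 22.1 in HEK293T (17 tags). The other 4 dual peaks lay between 144 and 347 bases from a site, had fold enrichments of 15.3 to 25.4 with 7 to 16 tags, and had no counterpart in the other lists.

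At DDX11L5, 3 short peaks were called side by side. With formaldehyde their fold enrichments were 31.0, 80.7 and 19.7 with 6, 13 and 10 tags. With dual cross-linking they were 75.7, 91.6 and 75.7 with 24, 24 and 25 tags. HEK293T had peaks at sites 2 and 3 only, with fold enrichments of 17.2 and 15.1, 9 and 15 tags, and FDRs of 26.2% and 5.74%. The first dual peak ran 11 bases into the undetermined start of the chromosome.

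DDX11L2 was the gene at which the HEK293T fold enrichment came nearest to that of dual DU 145, which did not hold by tags. Its site had a fold enrichment of 31 with formaldehyde (29 tags, 19.4 to 41.6), 58.7 with dual cross-linking (66 tags, 51.0 to 84.0) and 37.4 in HEK293T (17 tags, 9.90 to 27.2). The HEK293T value was above 99.7% of the HEK293T list and 1.21 times the formaldehyde value. By tags, HEK293T had 0.258 of the dual DU 145 number at DDX11L2, against 0.375 and 0.6 at DDX11L5. A second dual peak 35 bases further along the CCCTAA array had a fold enrichment of 22.4 and 22 tags.

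LINC00266-3 and TUBBP5 had no HEK293T peak at their sites. At LINC00266-3 the formaldehyde peak had 6 tags, the lowest number in that list, and a fold enrichment of 17.6. The dual peaks had fold enrichments of 38.6 and 67.4 with 22 and 47 tags. The second of them lay 88 bases beyond the site, held 19 hexamers against 12, and had no formaldehyde counterpart. At TUBBP5 the formaldehyde peak also had 6 tags and a fold enrichment of 37.2, and the dual peaks had fold enrichments of 59.3 and 20.3 with 24 and 14 tags. With no read totals, a HEK293T peak below the threshold and no peak at all cannot be told apart.

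**Figure D2:**
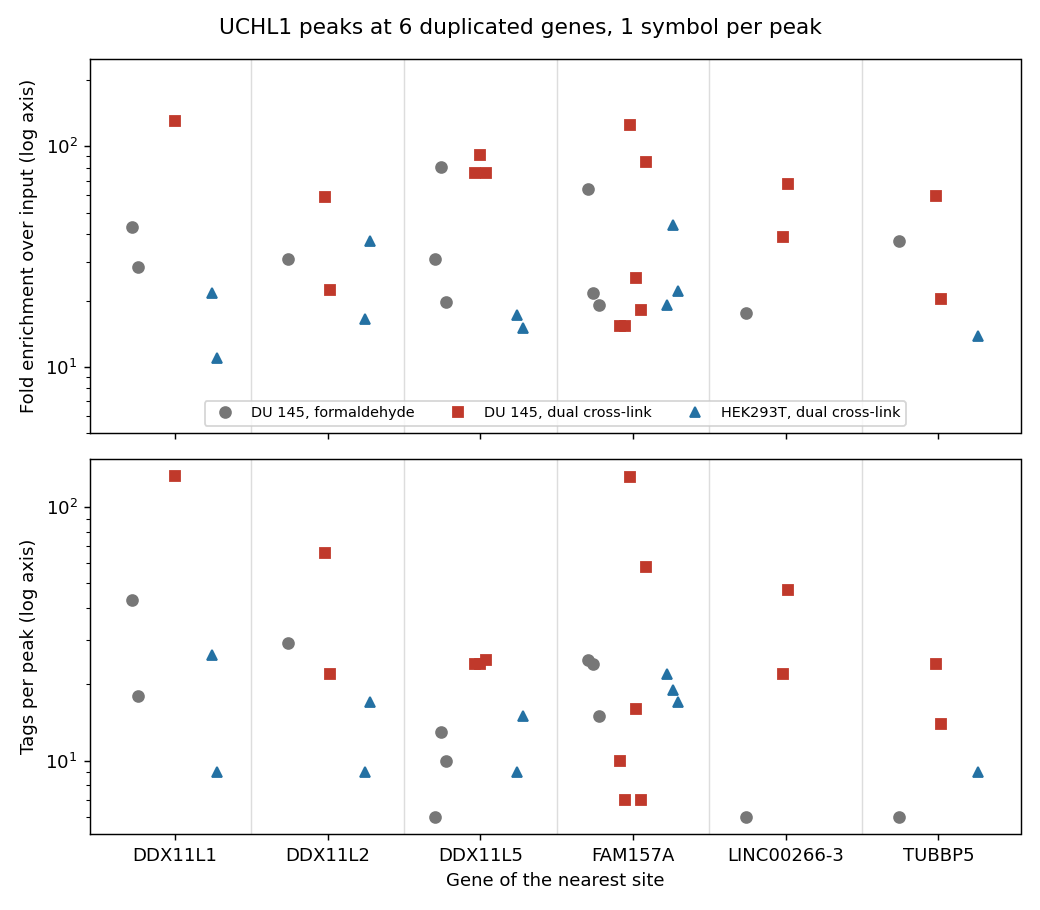
Each symbol is 1 of the 37 UCHL1 peaks, placed by gene and list, with fold enrichment over input above and tags below, both on log axes. The dual DU 145 peaks of DDX11L1 (fold enrichment 129.8) and FAM157A (125) stand highest, and the HEK293T peaks lie between 11.04 and 44.2.

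The members stood high within their lists. Fold enrichment was above the upper quartile of the list in 7 of 11 formaldehyde peaks, 11 of 16 dual peaks and 7 of 10 HEK293T peaks, where 25.0% of all peaks in each list are above it. An FDR of 5% or less was given to 5 of 11 formaldehyde peaks, against 1.91% of that list, to 15 of 16 dual peaks, against 68.3%, and to 5 of 10 HEK293T peaks, against 17.8%. All 11 formaldehyde and 9 of the 16 dual members lay at sites that the study chose for a peak in both DU 145 lists. The whole lists also hold peaks of 1 list only, so the DU 145 shares are descriptions and not a result about these genes. The HEK293T shares are descriptions too, since 7 of the 10 HEK293T members lay at the same sites. Against other peaks with the repeat, the medians of the members with the repeat were close in 2 lists. The median fold enrichment was 31 against 31.0 for 68 other formaldehyde peaks and 21.5 against 22.1 for 42 other HEK293T peaks. With dual cross-linking it was 59.3 against 35.9 for 147 other peaks, with ranges of 15.3 to 129.8 and 6.68 to 235, which overlap.

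Dual cross-linking gave the higher fold enrichment at each of the 9 sites. Taking the strongest peak per list and site, the ratio of dual to formaldehyde fold enrichment had a median of 2.20. It was lowest at the second DDX11L5 site (1.14) and highest at the second FAM157A site (4.43), with 3.02 at DDX11L1, 1.89 at DDX11L2, 2.20 at LINC00266-3 and 1.59 at TUBBP5. Tags of the same peaks moved the same way at 9 of 9 sites, by 1.85 to 5.24 times, though tags are not scaled for depth. At DDX11L1 and the first FAM157A site 1 dual peak was set against the stronger of 2 formaldehyde peaks. These had 43 and 18 tags at DDX11L1 and 25 and 24 tags at FAM157A, so the tag ratios there are too high for the whole stretch. At 60 other dual peaks with the repeat and a formaldehyde counterpart the median ratio was 1.79 (0.360 to 8.39), with 53 above 1 and 7 at or above the highest ratio of the 9 sites. The sites are thus within the range of other repeat peaks. They share their libraries and are not replicates of the condition.

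HEK293T had a peak at 6 of the 9 sites, by the rule that the midpoint of either interval lies in the other. These were the sites of DDX11L1 and DDX11L2, both of FAM157A and sites 2 and 3 of DDX11L5. Among single peaks, 6 of the 16 dual DU 145 peaks had such a HEK293T peak, against 7.58% of all dual DU 145 peaks and 24.7% of those with the repeat. At all 6 sites the HEK293T fold enrichment was below that of DU 145 with dual cross-linking, with a median ratio of 0.230. The ratio was 0.166 at DDX11L1, 0.188 and 0.199 at DDX11L5, 0.261 and 0.354 at FAM157A and 0.637 at DDX11L2. At the first FAM157A site (0.354) 1 dual peak was set against the stronger of 2 HEK293T peaks, with a fold enrichment of 44.2. The other HEK293T peak, whose summit was the nearer to the dual summit, had 19.2, so the ratio there depends on the peak taken. At 34 other dual peaks with the repeat and a HEK293T counterpart the median was 0.325 (0.0828 to 0.985), none was above 1, and 3 were at or above the DDX11L2 value. Against formaldehyde the HEK293T fold enrichment was higher at DDX11L2 (1.21 times) and at the second FAM157A site (1.15 times) and lower at the other 4 sites.

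**Figure D3:**
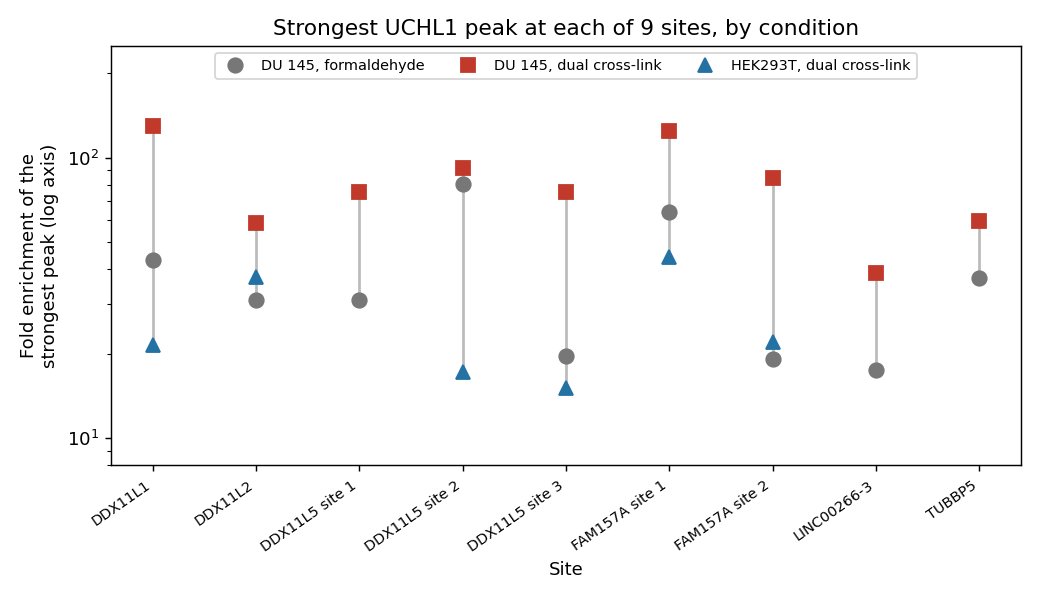
Fold enrichment of the strongest peak of each list is drawn on a log axis for each of the 9 sites, 1 symbol per library and no error bars since each condition has 1 ChIP library. The dual DU 145 value is highest at every site, and HEK293T has a symbol at 6 sites, nearest to the dual value at DDX11L2 (37.4 against 58.7).

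The peaks of the 3 libraries had their summits at nearly the same bases. The summits of the strongest formaldehyde and dual peaks lay 1 to 12 bases apart at the 9 sites. From the dual summit to the nearest HEK293T summit the distance was 0 bases at DDX11L1, 1 base at DDX11L2, 2 and 10 bases at FAM157A and 1 and 12 bases at DDX11L5. At the first FAM157A site the HEK293T peak with the highest fold enrichment was the other of its 2 peaks, 158 bases from the dual summit. The sites were chosen for a peak in both the formaldehyde and the dual list, and only peaks that shared a base with a site were compared. This choice limits how far apart the summits could lie, and how much of their closeness it gives was not tested. The distances are therefore descriptions and no test of agreement between the libraries. The libraries were mapped to the same reference, and the part of mapping in the closeness of the summits was not tested.

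The copies differed in how far a 50-base read could tell them from other places. By exact match, the 50 bases around the summit occurred once in hg19 for 29 of the 37 peaks. With up to 2 mismatches, as the reads were mapped, 13 of the 37 had 1 place. These were 2 of 11 formaldehyde, 8 of 16 dual and 3 of 10 HEK293T peaks. With 35 bases by exact match, 20 of the 37 occurred once. With 2 mismatches the 4 hexamer peaks of DDX11L1 had 28 to 34 places each. At the first FAM157A site the strong dual summit had 463 places, 1 formaldehyde summit had 473, and the HEK293T summits had 473 and 476. The 3 DU 145 peaks of TUBBP5, both dual peaks of DDX11L2 and its HEK293T peak with hexamers had 1 place each, while the DDX11L2 formaldehyde summit had 8. Over whole arrays with 2 mismatches, the share of 50-base stretches with 1 place was 86.9% in the CCCTAA array of DDX11L2, 61.4% at DDX11L5, 32.7% at TUBBP5, 21.2% at FAM157A, 13.9% at LINC00266-3 and 2.43% at DDX11L1. How reads with several places were handled is not stated in the sources used here. The share of the tags that came from other chromosome ends is therefore not known, least of all at DDX11L1 and the first FAM157A site, which had the highest dual fold enrichments.

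Peaks covered part of the arrays and none of the TTAGGG array of DDX11L2. Of the 380 exact hexamers in the windows, 123 (32.4%) lay under a formaldehyde peak, 237 (62.4%) under a dual peak and 95 (25%) under a HEK293T peak. At DDX11L1, 43, 55 and 32 of 68 hexamers lay under a formaldehyde, dual and HEK293T peak, respectively. At DDX11L5 these were 25, 32 and 22 of 41. At FAM157A they were 37, 77 and 32 of 151, at DDX11L2 10, 30 and 9 of 56, at LINC00266-3 3, 31 and 0 of 40, and at TUBBP5 5, 12 and 0 of 24. Dual peaks covered more hexamers than formaldehyde peaks at each gene, and their median length over the whole lists was also larger (98 against 65 bases).

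Peaks with more hexamers tended to have higher fold enrichment in the dual list. Pearson's r was 0.71 (Spearman's rho 0.64) over the 16 dual peaks, -0.05 (0.03) over the 11 formaldehyde peaks and 0.23 (0.51) over the 10 HEK293T peaks. The dual relation rested in part on the DDX11L1 and FAM157A peaks with 55 and 29 hexamers, since r was 0.37 (0.46) without these 2. Without the 2 peaks farthest from the median hexamer number, r was -0.03 (-0.08) for formaldehyde and 0.38 (0.32) for HEK293T. Peaks of 1 list share their library and input, and longer peaks hold more hexamers, so these values are descriptions. DDX11L2 and DDX11L5 reached fold enrichments of 58.7 and 91.6 with 12 hexamers and no run above 3, and the DDX11L1 formaldehyde peak with 25 hexamers and a run of 7 had 28.4.

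**Figure D4:**
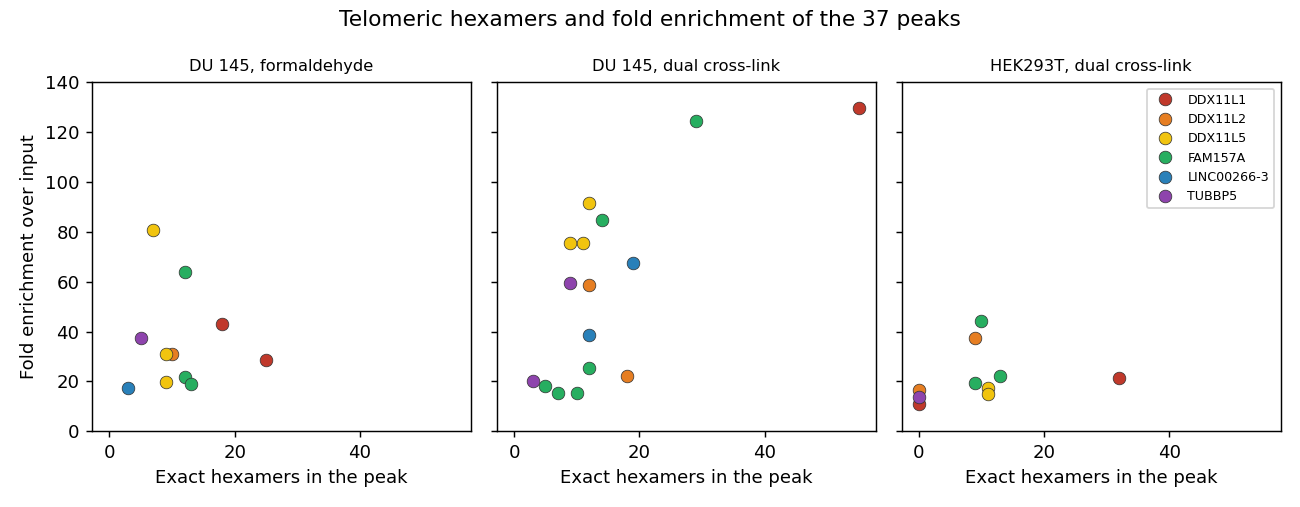
The number of exact hexamers in each of the 37 peaks is plotted against its fold enrichment, with 1 panel per list and 1 colour per gene. The dual DU 145 panel reaches 129.8 at 55 hexamers (DDX11L1), and the formaldehyde panel is highest at 7 hexamers (80.7, DDX11L5).

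The 3 HEK293T peaks without a hexamer had few tags and high FDRs, and each had copies elsewhere in hg19. Those of DDX11L1 and DDX11L2 are shown because near-identical copies of them lie at other DDX11L genes.
DDX11L1, HEK293T peak, chr1:11666-11789: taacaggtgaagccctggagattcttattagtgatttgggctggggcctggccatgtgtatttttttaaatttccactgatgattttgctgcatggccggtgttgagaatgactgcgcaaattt
DDX11L2, HEK293T peak, chr2:114358842-114358955: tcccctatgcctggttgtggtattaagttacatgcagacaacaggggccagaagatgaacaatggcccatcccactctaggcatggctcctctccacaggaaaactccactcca
The first lay 1241 bases from the DDX11L1 site, 221 bases before the pseudogene and 80 bases from the long non-coding RNA ENSG00000290825. The second lay 1622 bases from the DDX11L2 site, on the gene side of the junction, and 4 bases before the pseudogene. The third (chr9:141055873-141055984) lay 1512 bases from the TUBBP5 site, inside the same long non-coding RNA. Each had 9 tags (4.12 to 17.1), where the lowest in the list is 8, with fold enrichments of 11.04, 16.6 and 13.8 and FDRs of 33.1%, 31.8% and 29.8%. The fold enrichment of the DDX11L2 peak was nonetheless above 75.7% of the HEK293T list. The DDX11L1 peak had 6 other copies over at least 95% of its length at 97.6% identity or more, and the DDX11L2 peak had 6 at 99.1% or more, 4 of them identical, among them the corresponding stretches of DDX11L1 and DDX11L5. The TUBBP5 peak had 1 other copy by the same limits, on chromosome 10 at 95.6% identity. None of these copies had a peak in any of the 3 lists. With identical sequence, a read of 50 bases cannot show which copy it came from.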

How the data were processed

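The study sequenced UCHL1 ChIP and input DNA on the SOLiD platform with 50-base reads, aligned the reads to hg19 by Lifescope with up to 2 mismatches, and ran the peak caller MACS 1.4.2 on each ChIP library against its input at p 1e-05 and mfold 10 to 30. The deposited tags are unscaled counts of reads per peak. The authors' deposited score carries no readable name and was taken to be −log10 of the peak's p, multiplied by 10. The fold enrichment deposited by the authors is a ratio to the local background, and the FDR deposited by the authors is a percent.

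Sites were read from the study's site table and sequences from GRCh37, with genes from GENCODE 44 mapped to it. Both strands were searched for exact CCCTAA and TTAGGG. Peaks with over 50% undetermined bases were left out of sequence counts. Exact copies of 50-base stretches were counted over the whole assembly, and copies of peaks without hexamers were found with blastn 2.17.0 (at least 95% identity over 95% of the length). The 6 named genes and the hexamer definition were chosen with earlier results of these data known, and all members are described. The sequences of some peaks are not reported here. The copy counts inside arrays and those with 2 mismatches were added after seeing the peaks. Intervals are exact Poisson, 95%. No test between conditions was possible with 1 library each, and the median and range over other repeat peaks stand beside the members' values. Alternatives covered the window, score, FDR, overlap, intensity, repeat and summit rules. On simulated sequence, 40 of 40 arrays, 3 of 3 planted exact copies and 7 of 7 copies with up to 2 mismatches were recovered. Tools were Python 3.11.15, numpy 2.4.6, scipy 1.17.1, pysam 0.24.0, numba 0.67.0, samtools 1.23.1 and matplotlib 3.10.9.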

Additional observations from a re-analysis of the deposited data

How the results depend on the processing

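No replicate could be left out, and no paired analysis was possible because each condition has 1 ChIP library. The direction of both comparisons between conditions held under each alternative run, though tags are not scaled for depth. The median dual over formaldehyde ratio was 3.67 by tags, 3.71 by score and 2.44 by the mean over all peaks at a site, above 1 at 9 of 9 sites each time. The median HEK293T over DU 145 ratio was 0.275 by tags, 0.175 by score and 0.230 by the mean, below 1 at 6 of 6 sites. The rank of DDX11L2 rests on fold enrichment. A score of at least 100 left 7 formaldehyde and 5 HEK293T peaks, and an FDR of 5% or less left 5 and 5. HEK293T then had a peak at 4 of the 9 sites under either limit, and at 7 with any peak within 1 kb. With at least 4 consecutive hexamers, 6 formaldehyde, 7 dual and 4 HEK293T peaks counted as repeats. Hexamers with at most 1 base changed lay under peaks at 16.4%, 36.3% and 13.3% (formaldehyde, dual, HEK293T), and extending peaks by 100 bases gave 56.1%, 89.2% and 44.7% of exact hexamers. By tags, r with hexamer number was 0.56, 0.86 and 0.80, and by hexamers per 100 bases it was 0.21, 0.61 and 0.44, so the formaldehyde value depends on the measure. The cause of these shifts was not tested. Allowing 2 mismatches, an alternative added after seeing the data, cut the summits with 1 place from 29 to 13. Of the 46 alternatives, 20 stayed at or within 1.5 times the reported counts, among them the 4 and 7 sites with a HEK293T peak. The unknown depth and the 6 to 9 tags of the weakest peaks limit each statement on absence.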

Other observations

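Besides the 3 DDX11L genes above, GENCODE names 4 further DDX11L pseudogenes on the autosomes and chromosome X, and peaks within 5 kb of them were counted in the same way. All 4 had a formaldehyde peak, 3 had a dual DU 145 peak and 3 a HEK293T peak. DDX11L8 on chromosome 12 had the highest dual fold enrichment of the DDX11L genes looked up, with fold enrichments of 59.7, 174 and 29.2 and 162, 300 and 66 tags in the formaldehyde, dual and HEK293T lists. Its formaldehyde value was below that of DDX11L5 (80.7) and its HEK293T value below that of DDX11L2 (37.4). DDX11L10 on chromosome 16 had fold enrichments of 43.4, 71.7 and 13.8. DDX11L16 on chromosome X had 31.0 and 71.7 in the DU 145 lists and no HEK293T peak. DDX11L9 on chromosome 15 had 27.1 with formaldehyde and 16.6 in HEK293T with 10 tags, and no dual DU 145 peak.

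Of the other FAM157 copies, FAM157B on chromosome 9 had no peak within 5 kb of the annotated gene in any list. FAM157C on chromosome 16 had 4 dual DU 145 peaks by that rule, the highest with a fold enrichment of 19.4, and none in the other lists. The FAM157A sites lay 7252 and 6212 bases from their annotated gene, so that rule would have missed their peaks too. The absence at FAM157B is therefore no contrast with FAM157A. The summit sequence of the LINC00266-3 site also occurs on chromosome 20, from position 62918946. That exact stretch lay under a dual DU 145 peak with a fold enrichment of 29.9 and under no peak of the other lists. Close by, a copy of a DDX11L1 formaldehyde summit sequence, and not of the LINC00266-3 one, begins at position 62918504. That stretch lay under a peak in every list. The fold enrichments there were 20.8 with formaldehyde, 61.2 with dual cross-linking and 32.4 in HEK293T.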
